A study of Mus musculus with 13 samples.

Results

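Gene counts of the CA1 region of the hippocampus were compared between 4 libraries prepared 3 days after Schaffer collateral lesion (SCL) and 5 libraries of non-lesioned control cultures. These are 9 of the 13 libraries of the series, and the libraries prepared after entorhinal cortex lesion did not enter the fit. All 55291 gene symbols of the count files were considered, of which 11733 had a mean normalized count of at least 150 over the 9 libraries and were tested.

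The tissue came from organotypic entorhino-hippocampal tissue cultures of C57BL/6 wildtype mice. Such a culture is a slice of living brain in which entorhinal cortex, dentate gyrus, CA3 and CA1 keep their layers and connections, without blood flow and without fibers from the rest of the brain. Cultures were prepared at postnatal days 4 to 5 and were kept for at least 18 days in vitro. In SCL, the axons between CA3 and CA1 were cut with a scalpel, and control cultures received no cut. Each library held the RNA of 1 CA1 region of 1 culture, taken without the scar at the cut. Of the controls 2 were male and 3 female by the count headings, and of the SCL cultures 1 was male and 3 were female. The sources used here do not say which cultures shared an animal, so p-values measure the spread between cultures.

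Schaffer collaterals are the axons of CA3 pyramidal neurons, and they carry most of the excitatory input to CA1 pyramidal neurons. Cutting them removes glutamatergic synapses from the dendrites of CA1, while the severed axons and boutons degenerate and are cleared by microglia, the resident phagocytes of the brain. Neurons transcribe immediate early genes within minutes of synaptic activity, and astrocytes and microglia change their gene expression and can divide after a lesion. The comparison addresses which of these programs differ in denervated CA1 at a single time after the lesion.

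Control libraries held 14371152 to 21092612 counts each, and SCL libraries 16405517 to 56786613. The mitochondrial ribosomal RNAs took 4.72% to 5.93% of the counts in the controls and 1.33% to 2.48% after SCL, without overlap, and the part of this difference in the results was not tested. The first principal component held 49.1% of the variance and separated the groups, with control replicate 4 at -56.5 and the other controls at -35.0 to -6.23, against 18.1 to 45.3 after SCL. Titles give CA1 as the tissue, while a protocol text of the labels speaks of the dentate gyrus. Fibcd1, a marker of CA1 pyramidal neurons, was counted at 1701 to 2612 in the controls and 1657 to 2002 after SCL. Of 10 markers of dentate granule cells 6 passed the mean minimum, among them Stxbp6, counted at 1118 to 1621 in the controls and 746 to 844 after SCL, and Prox1, counted at 327 to 507 in the controls and 266 to 357 after SCL. The other 4, C1ql2, Dsp, Lct and Tdo2, were under it, and C1ql2 was counted at 0 to 42.3 in the controls and 1.87 to 20.7 after SCL, where a 0 allows up to 3 counts if each count is a separate molecule.

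Of the 11733 genes, 2891 (24.6%) were called, that is they had an adjusted p-value under 0.05 in the quasi-likelihood test of edgeR. They comprised 1529 genes that were higher after SCL (13%) and 1362 that were lower (11.6%). The median absolute log2 fold change was 0.83 among genes called higher and 0.69 among genes called lower, 501 genes rose and 276 fell by more than 2-fold, and 37 rose and 28 fell by more than 4-fold. The normalized counts of the groups did not overlap for 2749 genes (23.4%), and 2287 genes were both called and without overlap. The share without overlap was 12% in the higher and 11.4% in the lower direction. The median log2 fold change over all genes tested was 0.01. In bulk tissue, fewer cells of a type and less RNA per cell cannot be told apart, which holds for every group of genes that follows.

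The 5 largest rises without overlap were those of the mitotic cyclin Ccnb2, the cytochrome c oxidase subunit Cox6b2, the tetraspanin Tspan31, the cell cycle phosphatase Cdkn3 and the processed pseudogene Gm10254. Ccnb2, Cox6b2 and Cdkn3 were under 150 in every control, so they passed the mean minimum through their SCL counts. Cox6b2 (chr7:4751792-4753094) was counted at 89.1, 79.3, 72.2, 64.3 and 30.0 in the controls and 456, 441, 1031 and 608 after SCL. It rose by 3.23 ± 0.34 on the log2 scale, where ± gives the standard error throughout (adjusted p = 0.00026). Tspan31 (chr10:127067280-127070264) was counted at 267, 291, 103, 116 and 93.4 in the controls and 2357, 1068, 1494 and 493 after SCL, a log2 fold change of 2.95 ± 0.44 (adjusted p = 0.00163), but 29.2% of its exon bases lie in exons of another gene as well, so its counts are uncertain. Gm10254 (chr3:54810384-54811250) rose by 2.93 ± 0.50, and only 43.9% of its 100-base stretches occur in no other annotated gene, so its counts are uncertain. Of 410 processed pseudogenes tested, 33.7% were called higher and 2.93% lower, against 13% and 11.6% of all genes. The 5 largest falls were those of Egr2, the unclassified transcript Gm47088, Ier2, the lipase Abhd2 and the small GTPase Arl4d. Gm47088 (chr13:93317427-93319065) was counted at 582, 476, 761, 689 and 696 in the controls and 61.7, 71.6, 52.5 and 59.3 after SCL, and its log2 fold change was -3.38 ± 0.22. Of the 190 tested transcripts of the same unclassified type, 29.5% were called lower and 0.53% higher. Abhd2 (chr7:79273199-79365508) was counted at 1988, 1547, 2204, 6747 and 4853 in the controls and 540.4, 553, 260.5 and 725 after SCL. The controls spread widely, with the highest counts in replicates 4 and 5, and every SCL library lay below every control (-2.74 ± 0.44, adjusted p = 0.00228).

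**Figure D1:**
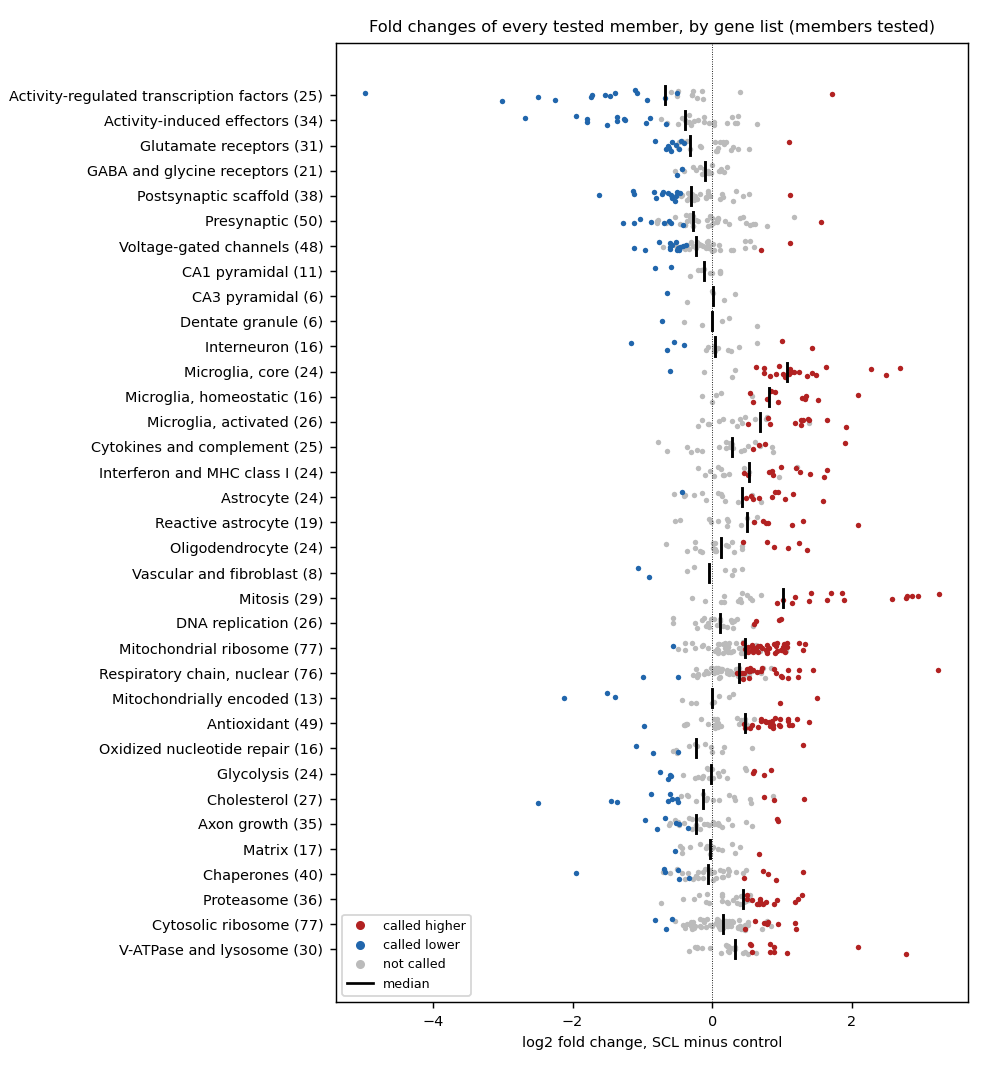
Log2 fold change (SCL minus control, x axis) of every tested member of the 35 gene lists, with the number of members tested in brackets. Red and blue points are members called higher and lower, grey points were not called, and black bars are list medians; the activity-regulated transcription factors lie lowest (median -0.67), the core microglia and mitosis lists highest (1.07 and 1.02).

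Activity-regulated transcription factors, among them those of the immediate early response, were lower after SCL. Of 25 measured members 14 fell and 1 rose, against 11.6% and 13% of all genes, with a median log2 fold change of -0.67. Lower without overlap were 14 members, against 11.4% of all genes. Egr2, a zinc finger factor (chr10:67535475-67542188), was counted at 1747, 1174, 2740.4, 2990.5 and 2702 in the controls and 44.9, 109, 49.2 and 81.5 after SCL. Every SCL library lay more than 10-fold below every control (-4.98 ± 0.37, adjusted p = 1.44e-05). Ier2 (chr8:84661331-84662852) was counted at 1249.8, 1613, 2199, 1959.8 and 1952 in the controls and 194, 245, 185 and 264 after SCL, again without overlap (-3.02 ± 0.20, adjusted p = 7.59e-06). Egr1, a zinc finger factor widely used as a marker of neuronal activity, was counted at 10553, 8988, 14108, 13110.5 and 14031 in the controls and 2178, 3080.0, 2074 and 2848 after SCL, without overlap (log2 fold change -2.26 ± 0.19). Fos, a subunit of the AP-1 factor, was counted at 9378, 10514, 9833, 10719.8 and 14798 in the controls and 3977, 3661, 2846 and 4786 after SCL. It fell by 1.53 ± 0.18 (adjusted p = 0.000889), and the groups did not overlap. Npas4, a factor induced by calcium entry, was counted at 659.7, 936, 1381, 485 and 691 in the controls and 202, 348, 139 and 314 after SCL and fell by 1.73 ± 0.33. Egr4 (-2.49 ± 0.25), Egr3 (-1.74 ± 0.29), Fosb (-1.46 ± 0.32), Nr4a2 (-1.39 ± 0.21) and Nr4a3 (-1.10 ± 0.22) fell as well. The exception was Mef2d, a factor that binds activity-dependent genes. It was counted at 116, 205, 153, 83.0 and 112 in the controls and 356, 501, 639.9 and 249 after SCL, without overlap (1.71 ± 0.32, adjusted p = 0.00392). Between 11 and 16 members were called lower when single libraries were left out, and 16 with gene length and GC content as an offset.

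Egr2 had the largest fall of all genes tested, and its promoter is shown because it holds the binding motif of serum response factor, which drives immediate early genes. RefSeq (GRCm38.p6) lists 5 start sites, and 4 of their windows from 250 bases before to 50 bases after the start hold the CArG box, searched on both strands. In the window chr10:67537619-67537918 (plus strand), the CArG box is in capitals:
Egr2: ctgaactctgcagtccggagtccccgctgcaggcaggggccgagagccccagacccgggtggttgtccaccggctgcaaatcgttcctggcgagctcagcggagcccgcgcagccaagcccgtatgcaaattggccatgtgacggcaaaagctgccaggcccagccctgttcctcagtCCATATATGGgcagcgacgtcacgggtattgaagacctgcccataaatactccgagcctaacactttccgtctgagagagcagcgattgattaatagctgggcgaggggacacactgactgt
Across the 21 transcription factors of the list with a RefSeq promoter, only Egr2 held a CArG box in any window (1 gene), and 1.81% of all 27025 symbols did. Elements outside these windows or with a variant sequence were not searched, so the other factors may hold such elements.

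Effectors of the activity response were lower as well. Of 34 tested members 12 fell and none rose (median -0.39), against 11.6% and 13% of all genes. With normalization over all symbols 9 fell and 1 rose (median -0.18), and without control replicate 5 the median was -0.26. Arc, which controls the removal of AMPA receptors from synapses (chr15:74669083-74672570), was counted at 1971, 1903, 1993, 1321 and 1852 in the controls and 440.4, 589, 462 and 373 after SCL. All SCL libraries lay below all controls (-1.95 ± 0.18, adjusted p = 0.000139). Arl4d was counted at 571, 609, 919, 667 and 601 in the controls and 78.5, 151, 75.8 and 113 after SCL and fell by 2.68 ± 0.26. Dusp1, a phosphatase that switches off MAP kinases (-1.80 ± 0.18), Dusp6, a phosphatase of ERK (-1.37 ± 0.26), and Btg2 (-1.51 ± 0.15) fell as well. Bdnf, the neurotrophin induced by activity, was not called. It was counted at 6873, 5396, 4570.3, 9800.1 and 12224 in the controls and 8960.4, 5393, 5658 and 5969 after SCL, so the groups overlapped (-0.26 ± 0.27, adjusted p = 0.506). Sik1, a kinase under the mean minimum, was counted at 57.1 to 277 in the controls and 18.6 to 25.2 after SCL.

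**Figure D2:**
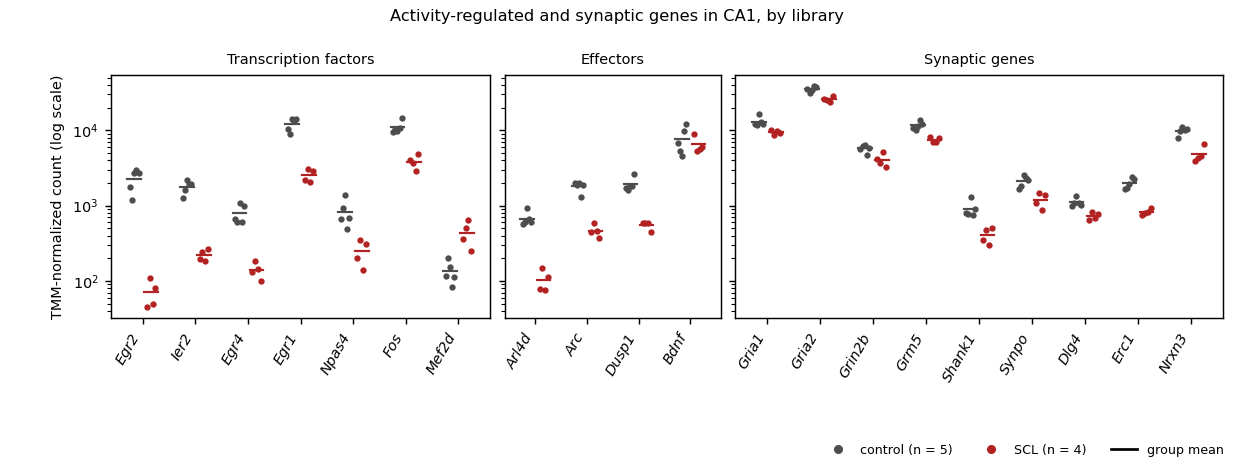
TMM-normalized counts (y axis, log scale) of activity-regulated and synaptic genes in each control (grey, n = 5) and SCL (red, n = 4) library, with bars at the group means. Egr2, Ier2, Fos and Arc do not overlap between the groups, while Bdnf does.

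Glutamate receptor genes were lower by smaller amounts. Of 31 measured members 11 fell and 1 rose (median -0.32), against 11.6% and 13% of all genes, and 10 were lower without overlap, against 11.4%. Gria1 and Gria2 encode subunits of AMPA receptors, which carry fast excitatory transmission. Gria1 was counted at 11953, 11830.3, 16386, 12954 and 12128 in the controls and 10073, 8548, 9696 and 9271 after SCL (-0.47 ± 0.14, adjusted p = 0.0265). Gria2 was counted at 35267, 30981, 34377, 38848 and 37469 in the controls and 26248, 24899, 24019 and 28758 after SCL (-0.45 ± 0.14, adjusted p = 0.0317), without overlap. Gria2 turned to 0.08 (adjusted p = 0.607) with the offset for length and GC content, and it lost its call in 10 others of the 21 alternatives, and Gria1 lost its call in 8. Grin2b, an NMDA receptor subunit, fell by 0.52 ± 0.15, a call lost in 9 of the 21 alternatives, at -0.09 with the offset. Grin1, the subunit common to NMDA receptors, was at 0.20 ± 0.27 (adjusted p = 0.62) and Grin2a at 0.08 ± 0.18 (adjusted p = 0.774). Of the metabotropic receptors Grm5 fell from a mean of 11636 to 7529 (-0.63 ± 0.13), and Grm3 (-0.57 ± 0.18) and Grm7 (-0.61 ± 0.19) fell as well. Cnih2, an AMPA receptor auxiliary protein, was the member that rose (1.10 ± 0.32, adjusted p = 0.0248). With normalization over all symbols 1 member fell and 2 rose (median -0.13).

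Postsynaptic scaffold genes, which hold receptors at the synapse, fell in 14 of 38 members and rose in 1 (median -0.31). Of all genes 11.6% fell and 13% rose. With normalization over all symbols 8 members fell and 1 rose (median -0.10). Shank1 was counted at 791, 767, 1290.3, 754 and 907 in the controls and 345, 479, 303 and 508 after SCL (-1.14 ± 0.22, adjusted p = 0.00437). Iqsec1, an activator of ARF6 at synapses, was counted at 1460.0, 1809.6, 2024, 2673 and 2512 in the controls and 799, 905, 959 and 1214 after SCL (-1.11 ± 0.19). Neither gene had an SCL library within the control range. Dlg4, which encodes PSD-95, fell by 0.59 ± 0.15 (adjusted p = 0.0134). Its call was lost in 4 of the 21 alternatives, among them normalization over all symbols and the offset for length and GC content. Synpo, whose product forms the spine apparatus, was counted at 1656, 1821, 2515, 2339.9 and 2185 in the controls and 1094, 1483, 869.8 and 1368 after SCL (-0.81 ± 0.18, adjusted p = 0.00843). Camk2a, the abundant kinase of synaptic plasticity, was at -0.36 ± 0.24 and was not called (adjusted p = 0.278), with overlapping counts. Sorcs2, a sorting receptor, rose by 1.12 ± 0.22. Shank3 was under the mean minimum.

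Presynaptic genes fell in 8 of 50 members and rose in 1 (median -0.28), against 11.6% and 13% of all genes. With normalization over all symbols 6 fell and 5 rose (median -0.07), and with DESeq2 9 fell and 5 rose. The members that fell include proteins of the active zone, where vesicles are released: Erc1 (-1.28 ± 0.15), Erc2 (-0.63 ± 0.14), Rimbp2 (-1.12 ± 0.19), Rims2 (-0.41 ± 0.11) and Pclo (-0.59 ± 0.13). Erc1 was counted at 1679, 1729, 1928, 2403 and 2230.3 in the controls and 747, 798, 817 and 925 after SCL, without overlap (adjusted p = 0.00081). Nrxn3, an adhesion molecule of the presynaptic membrane, was counted at 8000.1, 9844, 11125, 10169.6 and 10431 in the controls and 3893, 4311, 4624 and 6546 after SCL (-1.03 ± 0.17). The vesicle genes Syn1 (0.40 ± 0.26, adjusted p = 0.269) and Slc17a7, the vesicular glutamate transporter of CA3 and CA1 neurons (0.18 ± 0.35, adjusted p = 0.736), were not called, and their counts overlapped. Cplx3, a complexin, rose by 1.55 ± 0.43.

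Among voltage-gated channels, 14 of 48 genes fell and 2 rose (median -0.23), against 11.6% and 13% of all genes. The falls include sodium channel subunits (Scn1a, -0.50 ± 0.12; Scn3a, -0.61 ± 0.15), calcium channel subunits (Cacnb2, -1.13 ± 0.21; Cacna1e, -0.58 ± 0.17) and potassium channel subunits (Kcnb2, -0.96 ± 0.21; Kcna1, -0.76 ± 0.22; Kcna2, -0.60 ± 0.15). Cacnb2 was counted at 1098, 883, 1505, 1420.3 and 996 in the controls and 419.8, 487, 501 and 759 after SCL. With normalization over all symbols 2 channel genes fell and 3 rose (median -0.02). Without any one of SCL replicates 1, 2 or 3, between 6 and 7 channel genes fell, and without control replicate 1 or 5 there were 9. For glutamate receptors the same counts were 7 without SCL replicate 1 or 4, and 4 without SCL replicate 2 or 3.

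Of 21 inhibitory receptor, gephyrin complex and chloride transporter genes 2 fell and none rose, against 11.6% and 13% of all genes. The GABA-B receptor subunit Gabbr1 was among those that fell (-0.43 ± 0.12). The list median was -0.10, which turned to 0.10 with normalization over all symbols. The GABA-A receptor subunit Gabra2 was not called (-0.12 ± 0.19, adjusted p = 0.678). Of 16 interneuron and neuropeptide genes 4 fell and 2 rose, against 11.6% and 13% of all genes. Dlx1, a transcription factor of forebrain interneurons, was counted at 615, 712, 852, 622 and 1053 in the controls and 269, 392, 287 and 433 after SCL (-1.16 ± 0.22). Npy, the neuropeptide Y gene, was counted at 9814, 16346, 9065, 7563 and 14529.8 in the controls and 21972, 23027, 26737 and 19849.9 after SCL and rose without overlap (1.00 ± 0.22, adjusted p = 0.00718). Gad1, which makes GABA, fell by 0.41 ± 0.13, while Gad2 was at -0.10 ± 0.16 (adjusted p = 0.703), and Gad1 lost its call in 13 of the 21 alternatives. Of the interneuron genes 1 fell without SCL replicate 2 or 3, and 2 fell without SCL replicate 4 or control replicate 5.

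Markers of neuron types were tested in small lists. Called were 18.2% of the CA1, 16.7% of the CA3 and 16.7% of the granule cell markers. All of these calls were falls, against 11.6% of all genes called lower. Of 11 CA1 markers 2 fell, the transcription factor Pou3f1 (-0.82 ± 0.17, counted at 1094, 1031, 1572, 897 and 1264 in the controls and 694, 724, 627 and 610.5 after SCL) and Gpr161, a receptor of primary cilia (-0.59 ± 0.16), and the median of the list was -0.11 (0.09 with normalization over all symbols). Wfs1 (-0.04 ± 0.27, adjusted p = 0.935) and Fibcd1 (-0.20 ± 0.14, adjusted p = 0.32), both standard markers of CA1, were not called. The summed level of the 11 markers overlapped, at 17344 to 21393 in the controls against 16057 to 20871 after SCL. Of 6 tested CA3 markers 1 fell, the proteoglycan Spock1 (-0.65 ± 0.19), while Bok (-0.01 ± 0.31) and Cpne4 (0.17 ± 0.43) were not called. Cpne4 spread more than 5-fold within SCL, at 701, 1422, 1435, 705 and 517 in the controls and 392, 579, 1352 and 2006 after SCL. Of 6 granule cell markers 1 fell, Stxbp6 (-0.72 ± 0.15), and Prox1 was at -0.40 ± 0.20 (adjusted p = 0.152).

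Microglia genes were higher after SCL. Of 24 tested core genes 20 rose and 1 fell (median 1.07), against 13% and 11.6% of all genes. Higher without overlap were 19, against 12% of all genes. Aif1, which encodes the microglia marker Iba1 (chr17:35170991-35176068), was counted at 2082, 2044, 2106, 1630.5 and 2065 in the controls and 3786, 3429, 6384 and 4350.5 after SCL (1.18 ± 0.17, adjusted p = 0.00156). C1qa, a chain of the complement protein C1q that tags synapses, was counted at 501, 793, 680.4, 85.7 and 155 in the controls and 1487, 2649, 5400.4 and 1843 after SCL. The lowest SCL library lay above the highest control (2.68 ± 0.56, adjusted p = 0.00602). Tyrobp, the adaptor of TREM2, was counted at 763, 944, 801, 497 and 367 in the controls and 1674, 1921, 9619.9 and 1977 after SCL, with SCL replicate 3 far above the other SCL libraries (2.49 ± 0.49, adjusted p = 0.00481). Fcgr3, a receptor for antibodies, was counted at 919, 1163, 935, 519 and 634 in the controls and 4963, 3336, 5210.3 and 2623 after SCL (2.27 ± 0.25, adjusted p = 0.000509). C1qb (1.36 ± 0.25), C1qc (1.12 ± 0.18), Trem2 (1.01 ± 0.15), Csf1r (0.74 ± 0.16) and the lysosomal marker Cd68 (1.48 ± 0.29) rose too. Hexa, a lysosomal hexosaminidase subunit, was the member that fell (-0.60 ± 0.16). Relative to the control mean, the median core gene stood at 1.07, 0.92, 1.23 and 0.73 (log2) in SCL replicates 1 to 4 and between -0.24 and 0.14 in the controls. Between 18 and 20 core genes rose when any single library was left out.

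Most tested genes of homeostatic microglia and part of the activation genes rose. Of 16 homeostatic genes 11 rose and none fell (median 0.81), against 13% and 11.6% of all genes. P2ry12, a purine receptor lost by strongly activated microglia, was counted at 302, 522, 457, 703 and 410.4 in the controls and 1214, 881, 956 and 627 after SCL, with a small overlap (0.94 ± 0.24, adjusted p = 0.0149), and Tmem119 was counted at 195, 333, 265, 158 and 284 in the controls and 377, 534, 502 and 429.7 after SCL, without overlap (0.90 ± 0.24, adjusted p = 0.0161). Without SCL replicate 2 or SCL replicate 3 the count of rises in the homeostatic list was 6. Of 26 genes of activated and phagocytic microglia 11 rose and none fell (median 0.69), against 13% and 11.6% of all genes. Those that rose include Tspo, the mitochondrial translocator protein (1.91 ± 0.27), and the surface protein Cd52 (1.64 ± 0.29). The tetraspanin Cd9 (1.39 ± 0.17) and the protease Ctsb (1.38 ± 0.19) rose too. Cd9 was counted at 9186, 9579, 6730.0, 6273 and 9228 in the controls and 23006, 20176, 24543 and 18401 after SCL. Apoe, the main brain apolipoprotein, was counted at 43150.4, 56105, 47557, 30979 and 39242 in the controls and 67652, 55588, 65140.0 and 60382 after SCL and rose by 0.52 ± 0.18 (adjusted p = 0.0477), a call lost in 12 of the 21 alternatives. Lpl, a lipase of phagocytic microglia, was at 0.10 ± 0.24 (adjusted p = 0.781). Relative to the control mean, the median activation gene stood at 0.33, 0.28, 0.82 and 0.96 (log2) in SCL replicates 1 to 4. In the controls it stood between -0.40 and 0.32, with control replicate 1 above SCL replicate 2, so the groups overlapped.

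Inflammatory cytokines were low in both groups. Tnf was counted at 8.35, 15.9, 99.7, 4.02 and 76.7 in the controls and 9.35, 17.04, 14.6 and 41.5 after SCL and Il1b at 16.7, 63.4, 22.3, 52.2 and 90.1 in the controls and 27.1, 36.6, 19.9 and 53.3 after SCL, both under the mean minimum, with overlapping groups. Of 25 tested cytokine, receptor and complement genes 4 rose, among them the chemokine Ccl5 (1.90 ± 0.39), the complement receptor C3ar1 (0.75 ± 0.21) and the complement inhibitor Serping1 (0.58 ± 0.17), and none fell (median 0.28), against 13% and 11.6% of all genes. Ccl5 was counted at 125, 135, 51.5, 49.5 and 120.1 in the controls and 292, 274, 645 and 228 after SCL, without overlap and highest in SCL replicate 3. Without SCL replicate 3, 1 gene of the list rose.

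Interferon-stimulated and MHC class I genes rose in 11 of 24 members, with none lower (median 0.52), against 13% and 11.6% of all genes. Higher without overlap were 11 members, against 12% of all genes. B2m, the light chain of MHC class I (chr2:122147686-122153083), was counted at 8931, 6779.6, 6049.6, 10374 and 7216 in the controls and 19179, 18744, 42310.5 and 14798 after SCL. SCL replicate 3 held more than 2 times the count of every other library (1.59 ± 0.28, adjusted p = 0.0029). Ifitm2, a membrane protein that blocks virus entry, was counted at 1269, 1227, 1010.3, 930.3 and 1173 in the controls and 3356, 2429, 2838 and 1655 after SCL (1.196 ± 0.19, adjusted p = 0.00193), with 40.9% of its exon bases shared with another gene. Ifi27 was counted at 2775, 2863, 3142, 3069 and 3126 in the controls and 5912, 5016, 5386 and 4708 after SCL (0.81 ± 0.12). Rtp4 (1.64 ± 0.28), Lgals3bp (1.40 ± 0.23) and Ifitm3 (0.98 ± 0.18) rose as well. Ifit3 rose as well, with control replicate 1 at 2593 and SCL replicate 4 at 1347 (1.25 ± 0.42, adjusted p = 0.0442), so its groups overlapped, and the call was lost in 10 of the 21 alternatives. Without SCL replicate 2, 7 members rose. Relative to the control mean, the median member stood at 0.74, 0.58, 0.44 and 0.29 (log2) in SCL replicates 1 to 4. Control replicate 1 stood at 0.34, above SCL replicate 4, and the other controls stood between -0.26 and 0.02.

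Promoters of B2m and Ifitm2 are shown because both hold the interferon-stimulated response element, searched as GAAANNGAAA on both strands. The element is in capitals in the RefSeq windows chr2:122147437-122147736 (plus strand) and chr7:140955912-140956211 (minus strand, printed in the direction of the gene):
B2m: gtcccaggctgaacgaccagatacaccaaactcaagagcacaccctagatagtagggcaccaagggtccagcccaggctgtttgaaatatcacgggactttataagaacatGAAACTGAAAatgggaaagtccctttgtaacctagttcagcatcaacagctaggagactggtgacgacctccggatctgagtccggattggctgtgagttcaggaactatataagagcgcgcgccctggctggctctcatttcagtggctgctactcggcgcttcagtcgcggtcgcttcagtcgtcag
Ifitm2: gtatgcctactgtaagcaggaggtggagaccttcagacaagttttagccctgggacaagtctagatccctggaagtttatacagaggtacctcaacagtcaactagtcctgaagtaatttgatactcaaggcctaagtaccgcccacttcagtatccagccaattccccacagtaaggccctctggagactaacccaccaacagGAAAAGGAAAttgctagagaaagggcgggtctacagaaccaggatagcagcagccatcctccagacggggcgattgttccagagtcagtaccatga
Of the 20 tested members with a promoter, 10 (50.0%) held the element, against 3.99% of all 27025 symbols and 3.64% of the 8781 genes tested with a promoter. Among the 9 members with a promoter that rose, 5 held it.

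Astrocyte genes rose in 10 of 24 members and fell in 1 (median 0.43), against 13% and 11.6% of all genes. Gfap, the intermediate filament that marks reactive astrocytes, was counted at 46715, 51984, 47637, 42878 and 47261 in the controls and 89932, 92582, 82830.2 and 75883 after SCL. All SCL libraries lay above all controls (0.85 ± 0.14, adjusted p = 0.00244). Aqp4, the water channel of astrocyte endfeet, was counted at 4317, 4137, 4247, 5673 and 4524 in the controls and 6576, 7752, 7161 and 7609 after SCL, also without overlap (0.67 ± 0.13). The gap junction gene Gjb6 rose by 1.04 ± 0.16, and Slc4a4, a bicarbonate transporter, fell by 0.44 ± 0.15, a call lost in 15 of the 21 alternatives. Aldoc, a glycolytic enzyme of astrocytes, was counted at 16745, 18919, 15068, 12299 and 16880.2 in the controls and 93331, 49213, 28635 and 21483 after SCL, with the highest value in SCL replicate 1 (1.59 ± 0.34). Of 19 reactive astrocyte genes 7 rose and none fell (median 0.50), against 13% and 11.6% of all genes. Timp1, an inhibitor of matrix proteases, was counted at 289, 415, 261, 103 and 239 in the controls and 1164, 665, 1604 and 1014 after SCL (2.09 ± 0.33, adjusted p = 0.00211), and Serpina3n rose by 1.15 ± 0.22, while Lcn2 was at 0.50 ± 0.23 (adjusted p = 0.121). Without SCL replicate 3 or without control replicate 5, 6 astrocyte genes rose, and 6 did with the offset for length and GC content.

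Oligodendrocyte genes rose in 6 of 24 members and none fell (median 0.13), against 13% and 11.6% of all genes. Mog, a late myelin protein, was counted at 1407, 1971, 1438, 1201 and 1415 in the controls and 4139.9, 3696, 3649 and 2532 after SCL (1.24 ± 0.17, adjusted p = 0.00131), and Gpr17, a receptor of differentiating precursors, at 109, 148, 186, 129 and 180.2 in the controls and 274, 507, 356 and 396 after SCL (1.35 ± 0.25). Mbp, a major myelin protein, rose with overlapping counts, by 0.78 ± 0.26 (adjusted p = 0.0423), a call lost in 9 of the 21 alternatives. Of 26 vascular and fibroblast genes 18 were under the mean minimum, among them the endothelial junction gene Cldn5, counted at 3.44 to 13.4 in the controls and 0 to 4.26 after SCL. Of the 8 tested, 2 fell and none rose, against 11.6% and 13% of all genes. The receptor Flt1 (-0.91 ± 0.19) and Igfbp7 (-1.06 ± 0.23) were those that fell. The median of these 8 genes was -0.05, and it was 0.16 with normalization over all symbols and 0.12 with the offset for length and GC content. With a lower count filter, Col3a1, Col1a2 and Kdr fell in addition.

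**Figure D3:**
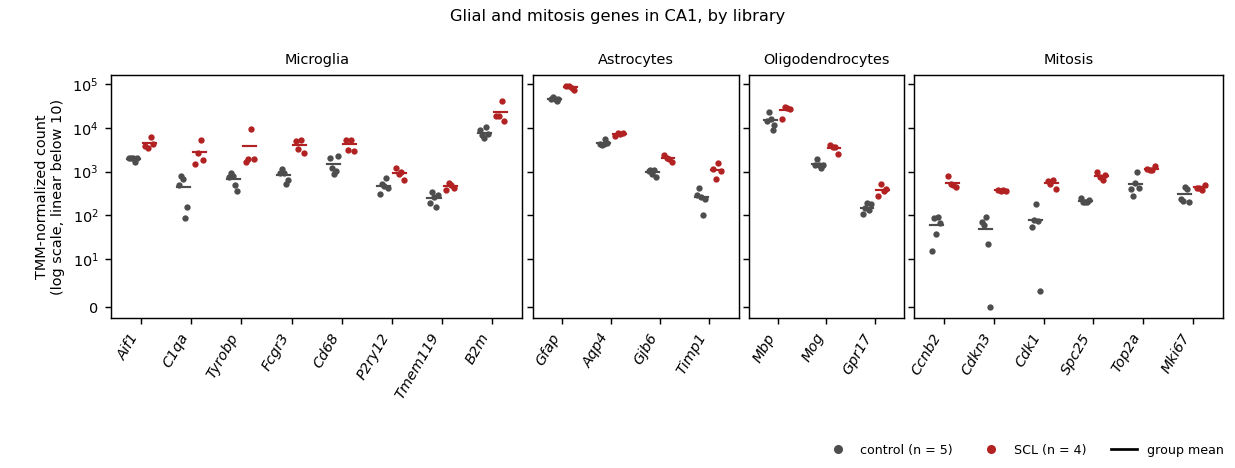
TMM-normalized counts (y axis, log scale, linear below 10) of glial and mitosis genes in each control (grey, n = 5) and SCL (red, n = 4) library, with bars at the group means. Aif1, Gfap, Mog, Ccnb2 and Spc25 do not overlap between groups, Mbp and Mki67 do, and Tyrobp and B2m are highest in SCL replicate 3.

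Mitosis genes rose from low levels. Of 29 tested genes 16 rose and none fell (median 1.02), against 13% and 11.6% of all genes. Higher without overlap were 15, against 12% of all genes. Ccnb2, a cyclin that activates CDK1 at entry into mitosis, was counted at 15.3, 84.6, 36.1, 91.0 and 65.1 in the controls and 789, 511, 493 and 452 after SCL (3.25 ± 0.40, adjusted p = 0.00104). Cdk1, the kinase that drives mitosis, was counted at 54.3, 79.3, 179, 75.0 and 3.34 in the controls and 611, 507, 639 and 389.7 after SCL (2.78 ± 0.56, adjusted p = 0.00524). Cdkn3 was counted at 68.2, 59.5, 91.1, 21.4 and 0 in the controls and 381, 361, 379 and 362 after SCL. Each of these genes had every SCL library above every control. Ccnb2 and Cdkn3 were under 150 in every control, and Cdk1 in all but control replicate 3. They passed the mean minimum through their SCL counts. Spc25, a kinetochore subunit, was counted at 249, 196, 203, 202 and 225 in the controls and 989, 742, 626 and 827 after SCL (1.89 ± 0.18, adjusted p = 0.000172). The ubiquitin ligase subunit Ube2c (2.57 ± 0.35), the kinase Pbk (2.87 ± 0.61), the cyclin Ccnb1 (2.77 ± 0.46) and Top2a, which untangles DNA (1.14 ± 0.28), rose as well. Mki67, the gene of the proliferation marker Ki-67, was counted at 238, 211, 450.2, 392 and 202 in the controls and 431, 416, 385 and 499 after SCL and was not called (0.53 ± 0.26, adjusted p = 0.146). Without single libraries 13 to 18 members rose, and 16 did with the offset for length and GC content, the number tested differing between these fits. With a lower count filter 23 of 47 members rose, the added ones including Cdc20, Aurka and Cks2. Of 26 tested genes of DNA replication 4 rose, Tyms, Rrm1, Rrm2 and Rfc4 (0.60 ± 0.18, 0.63 ± 0.19, 0.98 ± 0.28 and 0.96 ± 0.22), and none fell (median 0.11), against 13% and 11.6% of all genes. Pcna was at 0.15 ± 0.14 (adjusted p = 0.453), and without SCL replicate 3 the count of rises in this list was 1, and without control replicate 1 it was 2. The median of the replication list turned to -0.07 with the offset for length and GC content.

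Promoters of 3 mitosis genes that rose without overlap are shown, chosen after their values were seen, because genes of mitosis share the cell cycle genes homology region (CHR), searched as TTTGAA, and CCAAT boxes, searched as CCAAT, both on either strand. Matches are in capitals in the RefSeq windows chr9:70421505-70421804 (minus strand), chr10:69352863-69353162 (minus strand) and chr14:46760291-46760590 (plus strand), each printed in the direction of the gene:
Ccnb2: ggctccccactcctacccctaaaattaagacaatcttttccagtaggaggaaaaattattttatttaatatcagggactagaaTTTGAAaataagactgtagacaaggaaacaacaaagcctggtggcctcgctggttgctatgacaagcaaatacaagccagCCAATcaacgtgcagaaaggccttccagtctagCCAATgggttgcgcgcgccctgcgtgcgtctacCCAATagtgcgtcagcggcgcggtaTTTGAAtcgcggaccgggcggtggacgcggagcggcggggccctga
Cdk1: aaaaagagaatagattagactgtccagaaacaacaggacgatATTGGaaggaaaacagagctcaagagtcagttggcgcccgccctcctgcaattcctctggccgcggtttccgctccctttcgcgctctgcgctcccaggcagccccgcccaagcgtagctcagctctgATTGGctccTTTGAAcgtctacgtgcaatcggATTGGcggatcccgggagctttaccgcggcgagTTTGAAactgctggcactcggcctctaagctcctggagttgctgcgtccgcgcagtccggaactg
Cdkn3: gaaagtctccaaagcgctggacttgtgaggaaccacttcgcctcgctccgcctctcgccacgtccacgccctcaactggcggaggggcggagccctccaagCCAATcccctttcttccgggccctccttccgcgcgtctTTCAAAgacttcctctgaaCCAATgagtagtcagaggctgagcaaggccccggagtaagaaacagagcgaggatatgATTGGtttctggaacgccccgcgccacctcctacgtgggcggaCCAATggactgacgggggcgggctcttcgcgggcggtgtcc
Ccnb2 and Cdk1 each held 2 CHR and 3 CCAAT matches, and Cdkn3 held 1 CHR and 4 CCAAT matches. Of the 26 tested mitosis genes with a promoter, 18 (69.2%) held TTTGAA, against 20.2% of all symbols and 13.5% of the genes tested. CCAAT was held by 19 of the 26 (73.1%), against 41.1% of all symbols. Of the 14 mitosis genes with a promoter that rose, 10 held TTTGAA.

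Nuclear genes of the mitochondrion rose as groups of small changes. Of 77 mitochondrial ribosomal protein genes 36 rose and 1 fell (median 0.46), against 13% and 11.6% of all genes. Mrps18a (1.32 ± 0.27), Mrpl36 (1.30 ± 0.19) and Mrpl14 (0.44 ± 0.14) were among those that rose. Mrps35 fell (-0.56 ± 0.17), a call lost in 11 of the 21 alternatives. Of 76 nuclear-encoded subunits of the respiratory complexes and ATP synthase 25 rose and 2 fell (median 0.38), against 13% and 11.6% of all genes. The subunits that rose include Cox5a (1.45 ± 0.24) and Cox6b2 of complex IV and Ndufv2 (1.22 ± 0.21) and Ndufs8 of complex I. Ndufs8 was counted at 2745, 2982, 2454, 1676 and 2249 in the controls and 6267, 4758, 5531 and 3943 after SCL (1.08 ± 0.18, adjusted p = 0.00244). Cox6a2 (-0.99 ± 0.21) and Cox7c (-0.49 ± 0.15) fell, the call of Cox7c being lost in 9 of the 21 alternatives, and Cox4i1 was at 0.03 ± 0.15 (adjusted p = 0.906). These genes are short, with a median exon length of 1560 bases against 4614 for all genes tested. With the offset for length and GC content, 10 respiratory chain genes rose and 9 fell (median 0.06), while 26 mitochondrial ribosomal genes rose and 2 fell (median 0.32). Without SCL replicate 3, 12 respiratory chain genes rose, and without SCL replicate 2, control replicate 1 or control replicate 5 between 14 and 16. Without SCL replicate 1, 22 mitochondrial ribosomal genes rose.

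Of 13 tested mitochondrially encoded genes 2 rose and 3 fell, against 13% and 11.6% of all genes. Summed over these 13 genes, normalized counts were lower after SCL without overlap. The range was 1496730 to 2243620 in the controls and 919698 to 1033230 after SCL. This sum includes the mitochondrial ribosomal RNAs, which took 4.72% to 5.93% of the counts in the controls and 1.33% to 2.48% after SCL. The share of the mitochondrially encoded protein genes was not lower, at 1.34% to 2.01% in the controls and 1.77% to 2.61% after SCL, with overlap. The list median was 0.0006. mt-Rnr1, the small ribosomal RNA of the mitochondrion, was counted at 423299, 459607, 414060.0, 648513 and 478470.0 in the controls and 88162, 105497, 90418 and 161773 after SCL (-2.12 ± 0.24, adjusted p = 0.000607), and mt-Rnr2, the large one, fell by 1.39 ± 0.21. mt-Cytb, a subunit of complex III, was counted at 41273, 40304, 33892, 44269.9 and 45258 in the controls and 152915, 110051, 146029 and 55396 after SCL and rose by 1.502 ± 0.25, while mt-Co1, of complex IV, was not called (0.24 ± 0.22, adjusted p = 0.442).

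Antioxidant genes rose in 24 of 49 members and fell in 1 (median 0.48), against 13% and 11.6% of all genes, and 21 were higher without overlap, against 12%. Prdx1, a peroxiredoxin that reduces hydrogen peroxide, was counted at 10305, 12297, 10412, 9095 and 9770.5 in the controls and 20205, 19772, 28418 and 19489.8 after SCL (1.08 ± 0.15, adjusted p = 0.00152). Mgst1, a membrane-bound glutathione transferase, was counted at 5215, 4919.8, 3543, 4909 and 4791 in the controls and 11393, 9822, 11589.5 and 8328 after SCL (1.14 ± 0.15). Both had all SCL libraries above all controls. Gpx4, which reduces lipid peroxides (1.09 ± 0.30), Prdx6 (1.10 ± 0.16), Mgst3 (1.22 ± 0.22) and Selenop, a selenium carrier (1.38 ± 0.26), rose as well. Sod1, the cytosolic superoxide dismutase, was the member that fell, at 9111, 7875, 8328, 15624 and 8479 in the controls and 5239, 5038, 4000.3 and 5727 after SCL (-0.98 ± 0.21, adjusted p = 0.0065). With the offset for length and GC content 15 members rose and 2 fell, and without SCL replicate 3 15 rose. Genes that repair oxidized nucleotides gave 1 rise and 3 falls among 16 (median -0.23), against 13% and 11.6% of all genes. With normalization over all symbols 2 rose and 1 fell (median -0.01). With a lower count filter 2 of 23 rose and 2 fell (median -0.04). Ogg1, the glycosylase of 8-oxoguanine in DNA, was counted at 98.8, 120.3, 87.6, 52.2 and 105 in the controls and 268, 192, 289.7 and 163 after SCL (1.30 ± 0.29, adjusted p = 0.00777). Pcbp1, which binds oxidized RNA, was counted at 5363, 4743, 7122, 7871 and 7043 in the controls and 2559, 3324, 2706 and 3442 after SCL, without overlap (-1.10 ± 0.17, adjusted p = 0.00198), and Xrcc1, a scaffold of DNA repair, fell by 0.85 ± 0.24. Without SCL replicate 1 or 3, 1 gene of this list fell. Nudt1, which clears oxidized nucleotides, was at 0.16 ± 0.26 (adjusted p = 0.682).

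Of 27 tested cholesterol genes 9 fell and 3 rose, against 11.6% and 13% of all genes (median -0.13, and 0.07 with normalization over all symbols). Insig1, a sterol sensor and target of SREBP2, was counted at 4099, 2744, 3474, 8966 and 7654 in the controls and 1075, 1086, 528 and 1153 after SCL. The groups did not overlap, and control replicates 4 and 5 were the highest (-2.49 ± 0.36, adjusted p = 0.00155). Lss (-0.88 ± 0.18), Hmgcs1 (-0.61 ± 0.15) and Srebf2, the gene of SREBP2 (-0.58 ± 0.16), fell as well, while Sqle was not called (-0.35 ± 0.14, adjusted p = 0.0773). Abca1, which exports cholesterol, was counted at 3406, 3036, 2873, 3990.5 and 3141 in the controls and 5449.7, 5882, 6046 and 6958 after SCL and rose without overlap (0.89 ± 0.13, adjusted p = 0.0016). Ebp (1.31 ± 0.22) and Lcat (0.74 ± 0.23) were the other rises. Without SCL replicate 3, 5 genes fell. Glycolysis genes gave 4 rises and 4 falls among 24 (median -0.02), against 13% and 11.6% of all genes. Pdha1 (0.84 ± 0.19) and Ldhb (0.74 ± 0.18) rose. Hk2 (-0.75 ± 0.18) and Pgk1 (-0.59 ± 0.15, with 48.3% of its 100-base stretches in no other gene) fell. Hk1 (-0.41 ± 0.16) and Ldha (0.01 ± 0.14) were not called. The glycolysis median was 0.19 with normalization over all symbols, and 2 genes rose without any one of SCL replicates 1 to 3 or control replicates 1 or 5.

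Genes of axon growth and regeneration gave 2 rises and 6 falls among 35 (median -0.23), against 13% and 11.6% of all genes. The adhesion molecule Ncam1 was counted at 10881, 9101, 10647, 17598 and 14088 in the controls and 7183, 7045, 5486 and 5748 after SCL (-0.97 ± 0.19, adjusted p = 0.00526), and Klf7, a factor that promotes axon growth, fell by 0.80 ± 0.19, though 39.4% of its exon bases are shared with another gene. Gap43, the growth cone protein, was counted at 15282, 11693, 11652, 15931 and 25722 in the controls and 29644, 14692, 14932 and 9605 after SCL and was not called (0.10 ± 0.31, adjusted p = 0.837). Sprr1a, a regeneration-associated gene under the mean minimum, was counted at 5.57, 21.1, 10.3, 6.69 and 6.67 in the controls and 125, 28.1, 413 and 97.8 after SCL, and with a lower count filter its log2 fold change was 4.08 ± 0.69 (adjusted p = 0.00348). Without SCL replicate 2, SCL replicate 3 or control replicate 5, 3 axon growth genes fell. Of 17 matrix genes 1 rose and 1 fell, against 13% and 11.6% of all genes. The lectican Bcan rose (0.67 ± 0.21) and the lectican Ncan fell (-0.54 ± 0.15). The median of the matrix list was -0.04, and it was 0.16 with normalization over all symbols.

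Protein turnover genes rose in part. Of 36 proteasome genes 14 rose and none fell (median 0.44), against 13% and 11.6% of all genes. Psmb3 was counted at 3363, 3480.3, 2766, 2165 and 2979 in the controls and 8009.6, 6309, 8963 and 5564 after SCL (1.29 ± 0.17, adjusted p = 0.00131). Psmb2 rose as well (1.23 ± 0.18). Of 30 V-ATPase and lysosomal membrane genes 10 rose and none fell (median 0.32), against 13% and 11.6% of all genes. Atp6v0c, the proton ring subunit, was counted at 106, 122, 44.7, 50.9 and 86.7 in the controls and 753, 339, 1029 and 130.4 after SCL (2.78 ± 0.50), and Atp6v0e rose by 0.89 ± 0.13. Of 77 cytosolic ribosomal protein genes 8 rose and 3 fell (median 0.15), against 13% and 11.6% of all genes. With the offset for length and GC content 3 rose and 9 fell (median -0.12), with normalization over all symbols 21 rose and 1 fell (median 0.36), and with DESeq2 15 rose and 3 fell. Without SCL replicate 3, 4 ribosomal genes rose, and without SCL replicate 1, SCL replicate 2 or control replicate 3, 1 fell. Of 40 chaperone genes 5 rose and 6 fell, against 13% and 11.6% of all genes (median -0.07, and 0.14 with normalization over all symbols). Without SCL replicate 1, 2 chaperone genes rose, without SCL replicate 3, control replicate 3 or control replicate 5, 3 rose, and without SCL replicate 2, 2 fell. Cryab, a small heat shock protein, was counted at 2849, 3962, 2448, 2739 and 3266 in the controls and 8692, 6420.2, 9562 and 5386 after SCL (1.30 ± 0.19, adjusted p = 0.00155), with 17.04% of its exon bases shared with another gene. Hspa1b, an inducible HSP70, was counted at 296, 239, 392, 403 and 285 in the controls and 59.8, 81.0, 51.2 and 147 after SCL and fell by 1.95 ± 0.33, with only 50.1% of its 100-base stretches found in no other gene. Hsp90b1 fell by 0.68 ± 0.14, while Hspa8 (0.34 ± 0.19) and Hsp90aa1 (-0.43 ± 0.16) were not called.

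Calls moved with gene length. In the quartile of genes with the shortest exons 27.7% were called higher and 5.99% lower, and in the quartile with the longest 3.18% were called higher and 21.8% lower. The median log2 fold change ran from 0.29 through 0.08 and -0.05 to -0.21 across the quartiles. Postsynaptic scaffold genes, with a median exon length of 8806 bases, and voltage-gated channels, with 8842, are long, while core microglia genes, with 1837, are short. With the offset for length and GC content 10 scaffold genes, 7 glutamate receptor genes and 6 channel genes fell, against 14, 11 and 14 without it, and 18 core microglia genes rose against 20. With normalization factors taken over all symbols, the log2 fold changes of the genes tested moved up by 0.21. Under that scaling 8 scaffold genes fell and 1 rose, 1 glutamate receptor gene fell and 2 rose, and 2 channel genes fell and 3 rose. Of the cholesterol genes 3 fell and 5 rose, and of the axon growth genes 2 fell and 4 rose. The activity-regulated transcription factors gave 11 falls and 1 rise.

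**Figure D4:**
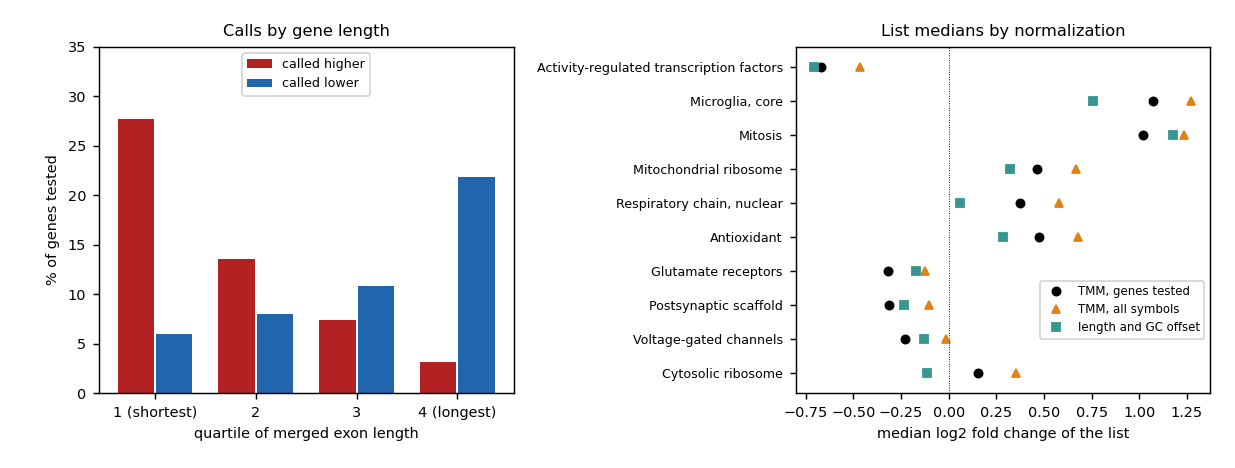
Left, percentage of genes tested that were called higher (red) or lower (blue) after SCL, by quartile of merged exon length. Right, median log2 fold change (SCL minus control, x axis) of 10 lists with normalization over the genes tested (circles), over all symbols (triangles) and with an offset for length and GC content (squares); the respiratory chain median moves from 0.38 to 0.06 with the offset, and the mitosis median from 1.02 to 1.18.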

How the data were processed

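RNA of 9 CA1 regions was sequenced from libraries of a low-input kit that does not mark strand, so genes on opposite strands of the same bases cannot be told apart. The authors removed adapters (cutadapt 3.5), mapped to mm10 with STAR 2.7.8a and counted on GENCODE M25 exons with featureCounts 2.0.1. The deposited values are raw counts per gene symbol. In every library even numbers made up 63.0% to 74.3% of the values between 1 and 20, so the mates of a read pair may have been counted separately, and a value may be about 2 times the number of fragments. A fit on halved counts was therefore an alternative. Column headings carry other replicate numbers than the titles, and groups followed the labels. The sex in the headings matched sex-linked genes in 9 of 9 libraries, and no pair of libraries was identical.

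Genes averaging at least 150 normalized counts were normalized with TMM and tested with the quasi-likelihood test of edgeR 4.0.16 (R 4.3.3), with SCL against control as the only term and Benjamini-Hochberg adjustment over 11733 genes at 0.05. The log2 fold changes are SCL minus control, and standard errors came from the F statistic. The biological coefficient of variation was 0.24. The mean minimum was taken over both groups, so genes low in the controls could pass it through their SCL counts. Among them were Ccnb2, Cox6b2, Cdkn3, Atp6v0c, Ccl5 and Ogg1, each under 150 in every control. Counts of 11733 genes were simulated, with 67 genes changed 1.5-fold, 67 changed 2-fold and 66 changed 4-fold. The test recovered 11.9% of the 1.5-fold, 67.2% of the 2-fold and 100% of the 4-fold changes, and 9.16% of its calls were false. Far fewer genes were changed there than the 2891 called in the data, so these rates need not hold for the data. Intervals and limits for low counts cover counting error only. Gene coordinates come from GENCODE M21 (GRCm38), in which 53186 of 55291 symbols matched 1 gene, and promoter windows come from RefSeq (GRCm38.p6).

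The members and gene lists were chosen with earlier results of these data known. Genes named in the text were the 5 largest rises and falls without overlap, up to 2 called members of each list in each direction with the smallest adjusted p, the first 2 members of each list, and 15 genes of activity, synapses and glia. Further genes were named after their values were seen: Aldoc, Btg2, C1qa, C1qb, C1qc, Cacna1e, Ccnb1, Cd52, Cd68, Cdk1, Cox5a, Csf1r, Dusp1, Dusp6, Egr3, Egr4, Erc2, Fosb, Grm3, Grm7, Hmgcs1, Ifitm3, Kcna1, Kcna2, Lcat, Lgals3bp, Lss, Mgst3, Mrpl14, Mrps18a, Ndufv2, Nr4a2, Nr4a3, Pbk, Pclo, Prdx6, Rimbp2, Rims2, Rrm1, Rtp4, Scn1a, Scn3a, Selenop, Serping1, Sik1, Srebf2, Trem2, Tspo, Tyms and Ube2c, as well as genes under the mean minimum. Alternatives were DESeq2 1.42.0, other normalizations and filters, thinned and halved counts, terms for sex and replicate number, gene length and GC content as an offset, a threshold of 0.01 and leaving out single libraries. Some genes are not reported here.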

Additional observations from a re-analysis of the deposited data

Results flagged for a closer look

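In 27 of 310 groups of named genes, the highest or lowest library stood apart from the others by Dixon's gap test. Chance alone gives about 1 in 20 such groups, and no cause was tested. Among the controls, replicate 4 stood apart most often. It was low for Arc (1321, others 1852 to 1993), Bok (120.5, others 334 to 404) and Aif1 (1630.4, others 2044 to 2106). It was high for Spock1 (2111, others 1328 to 1450.3), Aqp4 (5673, others 4137 to 4524), mt-Rnr1 (648513) and Sod1 (15625, others 7875 to 9111). Control replicate 3 was high for Arl4d (919), Gria1 (16386), Shank1 (1290.3) and Dlg4 (1361) and low for Mgst1 (3543). Control replicate 5 was high for Fos (14798), and control replicate 1 was low for Hspa8 (9715).

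After SCL, replicate 3 stood apart most often. It was high for Tyrobp (9619.9, others 1674 to 1977), Ccl5 (645, others 228 to 292), B2m (42311, others 14799 to 19179), Prdx1 (28418, others 19489.8 to 20205), Mt1 (67608, others 30216 to 32723) and Camk2a (5034, others 2789 to 3119.6), and low for Insig1 (528, others 1075 to 1153). SCL replicate 1 was high for Bdnf (8960.4), Ebp (793) and Grin2a (10871). SCL replicate 2 was low for Rfc4 (485), and SCL replicate 4 was high for Cox7c (2519) and mt-Rnr2 (441679).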

How the results depend on the processing

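Of the 122 named genes that were called, 74 kept their call and direction in all 21 alternatives, and 7 kept both in the fewer alternatives in which they were tested. Bcan lost its call in 8 alternatives, Gabbr1 in 7, Hexa and Xrcc1 in 6 each and Spock1 in 5. The count of calls was 2895 with DESeq2 size factors, 2834 with upper-quartile factors, 2658 with thinned and 2942 with halved counts, 2593 with a sex term and 3465 with edgeR's lower count filter. DESeq2 called 3172 genes, of which 63.9% were higher, against 52.9% of 2891. With TMM over all symbols 2554 genes were higher and 602 lower (80.9% higher), with no filter 3168 were higher and 2222 lower (5390 in all), and at an adjusted p under 0.01 564 were higher and 486 lower (1050.0 in all). The offset for length and GC content gave 2734 calls, of which 1989 were shared with the 2891, and 2 had the opposite sign. Without single libraries the calls ranged from 1672 to 2828, those higher from 912 to 1574 and those lower from 760.0 to 1364. The lowest counts were 1672 without SCL replicate 3, 1904 without SCL replicate 2 (830.0 lower) and 1973 without SCL replicate 1 (1005 higher). The causes were not tested.

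By the replicate numbers of the titles, deviations of same-numbered libraries correlated at 0.13, -0.13, 0.23 and -0.016. Differently numbered libraries ranged from -0.38 (control replicate 3 with SCL replicate 1) to 0.30 (control replicate 2 with SCL replicate 3). Pairing by the numbers in the column headings was not tested. With the replicate number as a block 2356 genes were called, and the log2 fold changes of Bok (0.087), Cpne4 (-0.21), Gad2 (0.0012), Lpl (-0.028) and Ldha (-0.00061) changed sign.

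Other small log2 fold changes changed sign as well. With DESeq2 these were Wfs1 (0.045) and Bok (0.062), with edgeR's lower count filter Wfs1 (0.037) and Bok (0.055), with TMM over all symbols Gabra2 (0.090), Wfs1 (0.18), Fibcd1 (0.0085), Bok (0.18) and Gad2 (0.10), and with no filter Gabra2 (0.090), Wfs1 (0.18), Fibcd1 (0.0084), Bok (0.18) and Gad2 (0.10). With the offset for length and GC content they were Gria2 (0.084), Gabra2 (0.13), Pcna (-0.084), Ndufa4 (-0.035), Cox4i1 (-0.35), mt-Co1 (-0.026), Nudt1 (-0.29), Ldha (-0.16), Gap43 (-0.30) and Rpl3 (-0.13), with a sex term Bok (0.070) and Gap43 (-0.037), and with thinned counts Bok (0.061). Without single libraries, the ranges that crossed 0 were -0.22 to 0.097 for Bok, -0.049 to 0.071 for Ldha, -0.29 to 0.33 for Gap43, -0.17 to 0.18 for Grin2a, -0.14 to 0.10 for Wfs1, -0.059 to 0.25 for Lpl, -0.039 to 0.12 for Cox4i1, -0.30 to 0.46 for Cpne4, -0.045 to 0.47 for Slc17a7, -0.0027 to 0.12 for Rpl3 and -0.22 to 0.0027 for Gad2.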
